A study of Homo sapiens with 6 samples.

Results

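Immune checkpoint ligands are surface or secreted proteins through which a cell dampens T cells, natural killer (NK) cells or macrophages. Transcripts of 10 genes were examined, made up of 8 ligand genes (CD274, PDCD1LG2, CD276, LGALS9, PVR, NECTIN2, NECTIN3 and CD47) and of 2 receptor genes (CD96 and TIGIT), among 33616 genes measured. The members were matched by gene symbol, and each had a single transcript cluster, the unit in which this array reports a gene, with no other symbol on it. The rule for a gene with several clusters, to take the one with the highest mean over all 6 arrays, therefore chose nothing here. The members were chosen by symbol with the log2 differences of the same comparison known, in which CD96 was one of the deepest falls. The difference of CD96 is thus given as a description without a test, and the adjusted p-values of the other members are the output of the fit for each gene and no evidence about the list.

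RNA came from LN229R cells, a TMZ-resistant derivative of the human GBM line LN229 (the sample labels name LN229), cultured in DMEM/F12 with fetal bovine serum. All cells, controls included, had been infected with a virus for CAS9 and selected with puromycin for 7 days, and neither group is labelled as treated with TMZ. ATRX NC cells (3 arrays, labelled as ATRX wild type) then received a virus with a non-targeting sgRNA, and ATRX KO cells (3 arrays, labelled as ATRX knockout) a virus with sgRNAs against ATRX, a chromatin remodeler, for 24 hours. Neither the labels nor the methods say whether the ATRX KO cells are 1 clone or a pool, or whether replicates were separate cultures. The p-values therefore cover the spread between these arrays, possibly technical, and no more. The log2 intensity of ATRX itself was 10.49, 10.22 and 10.14 across ATRX NC arrays against 8.47, 8.67 and 8.75 across ATRX KO arrays. Over all genes the arrays of a group correlated at r between 0.990 and 0.992, and arrays of different groups at 0.980 to 0.981. Of 8 glioma and glial markers, VIM and CD44 were at 17.05 and 13.97 in ATRX NC cells, whereas GFAP and OLIG2 were at 5.26 and 4.93, below the median gene level of 6.10. Of the same markers S100B fell by 2.93 (adjusted p = 3.36e-05 from limma) and NES by 1.02 (0.00482), EGFR rose by 0.94 (0.00720), and the other 5 did not pass. Over all genes 9.51% passed. The part of these markers in the values of the members was not tested.

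PD-L1, encoded by CD274, and PD-L2, encoded by PDCD1LG2, bind the receptor PD-1 on activated T cells and reduce T cell signaling. PVR, NECTIN2 and NECTIN3 are adhesion molecules of the nectin family. On T and NK cells PVR and NECTIN2 are bound by the activating receptor CD226 and the inhibitory receptor TIGIT, and PVR also by CD96. CD47 binds SIRPα on macrophages and restrains phagocytosis. Interferon-γ is a known inducer of CD274, through JAK kinases and IRF1. Glioma cells are known to carry several of these ligands, while CD96 and TIGIT are known as receptors of lymphocytes.

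The promoter windows of CD274, CD47 and CD96 are given here because they are the stretches in which motifs of interferon and NF-kB signaling were looked for. Windows are those of RefSeq for GRCh38.p14, from 250 bases before to 50 bases after the gene start, read 5′ to 3′ on the strand of the gene, and 9 of the 10 members, all but PDCD1LG2, had one. The motifs searched on both strands were GAAA and GAAA with NN between them (ISRE-like, bound by IRF factors), TTCNNNGAA (GAS-like, an element of interferon-γ signaling), and GGGNNTTCC (NF-kB-like), the last also with TTTCC in place of TTCC, where N is any base. Matched bases are in capitals. The window of CD274 lies at chr9:5450292-5450591, plus strand, that of CD96 at chr3:111541947-111542246, plus strand, and that of CD47 at chr3:108090982-108091281, minus strand.
CD274: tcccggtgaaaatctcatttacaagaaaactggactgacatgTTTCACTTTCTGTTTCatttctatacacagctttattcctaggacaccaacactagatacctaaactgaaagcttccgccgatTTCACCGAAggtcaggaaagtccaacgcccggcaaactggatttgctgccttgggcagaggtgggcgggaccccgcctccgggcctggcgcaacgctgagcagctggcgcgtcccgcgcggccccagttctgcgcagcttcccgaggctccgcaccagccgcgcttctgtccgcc
CD96: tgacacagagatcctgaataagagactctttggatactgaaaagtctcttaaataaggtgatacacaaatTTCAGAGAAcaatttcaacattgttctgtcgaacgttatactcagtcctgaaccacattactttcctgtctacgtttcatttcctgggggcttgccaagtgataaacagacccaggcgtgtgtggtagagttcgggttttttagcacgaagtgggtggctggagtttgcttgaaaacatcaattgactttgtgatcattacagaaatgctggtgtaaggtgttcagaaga
CD47: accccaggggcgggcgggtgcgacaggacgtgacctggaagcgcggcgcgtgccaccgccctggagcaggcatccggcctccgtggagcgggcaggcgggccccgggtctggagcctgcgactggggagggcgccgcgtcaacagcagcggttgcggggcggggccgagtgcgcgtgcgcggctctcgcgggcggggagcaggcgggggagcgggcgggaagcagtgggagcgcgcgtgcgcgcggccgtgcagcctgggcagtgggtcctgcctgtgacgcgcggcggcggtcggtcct
The window of CD274 held 2 ISRE-like matches that overlap each other, at bases -208 to -199 and -202 to -193 from the start, and 1 GAS-like match at -125 to -117. ISRE-like matches occurred in 3.57% of 35116 promoter windows of this length and GAS-like matches in 7.66%. In the window of CD96 a single GAS-like match lay at -180 to -172, and in that of CD47 no motif matched. Among the other members, LGALS9 had 1 ISRE-like match at its start, CD276 (in 1 of 2 windows) and PVR each had 1 match to the shorter NF-kB-like motif, which occurs in 6.58% of windows, and the longer one, in 1.91% of windows, matched none. A match describes the letters only and says nothing of binding in these cells.

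In ATRX KO cells, CD274, PDCD1LG2 and CD47 had higher transcript levels than in ATRX NC cells, CD96 had a far lower level, and CD276, LGALS9, PVR, NECTIN2, NECTIN3 and TIGIT did not pass the test. Calls were made at an adjusted p under 0.05 from limma, over all genes. Of the members other than CD96, which is given without a test, 3 rose and none fell. Over all genes 9.51% passed (5.79% rose and 3.72% fell). Nothing is read from these counts, since the members were chosen with the comparison in view. The groups did not overlap for 6 members, 4 of them higher and 2 lower in ATRX KO arrays, and over all genes 30.2% lay apart (19% higher and 11.2% lower). The median log2 difference was 0.05 for the members and 0.07 for all genes tested. In bulk RNA, fewer cells that carry a transcript and less of it per cell cannot be told apart.

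**Figure D1:**
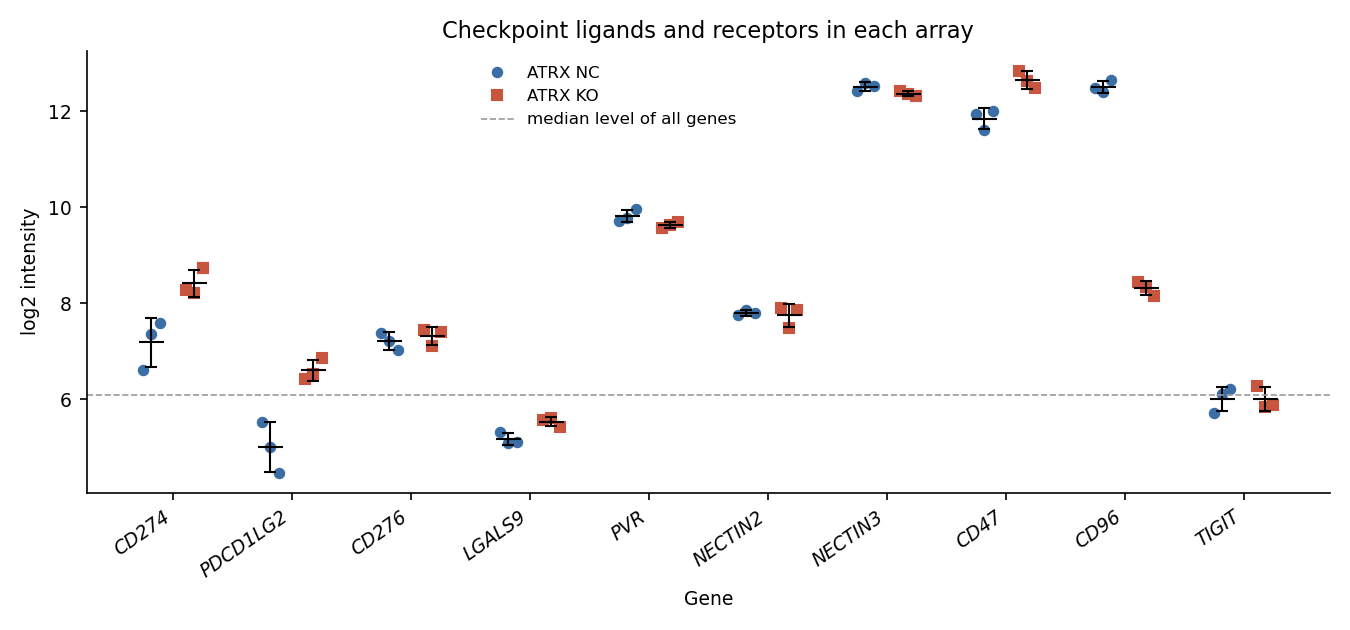
Log2 intensity (y axis) of the 10 members (x axis) in each of the 3 ATRX NC (circles) and 3 ATRX KO (squares) arrays, with the group mean (dash) and SD (bars) and the median gene level of 6.10 as a dashed line. CD96 falls from 12.5 to 8.32, and CD274, PDCD1LG2 and CD47 lie higher in each ATRX KO array.

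The log2 intensity of CD274 was 6.62, 7.36 and 7.59 across ATRX NC arrays against 8.29, 8.22 and 8.74 across ATRX KO arrays. All ATRX KO arrays thus lay above all ATRX NC arrays, with a gap of 0.63 between the nearest of them, and ATRX NC replicate 1 was the lowest. The mean rose from 7.19 ± 0.51 (SD, n = 3) to 8.42 ± 0.28 (SD, n = 3), a log2 difference of 1.23 (standard error 0.27, adjusted p = 0.0261 from limma), or 2.34-fold. Leaving out 1 array ended this call in 4 of 6 cases, those of ATRX NC replicate 2 (adjusted p = 0.0582) and of ATRX KO replicates 1 (0.0639), 2 (0.0548) and 3 (0.0935), with differences from 0.94 to 1.43 over the 6 fits that each leave out 1 array.

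PDCD1LG2 was at 5.53, 5.01 and 4.48 across ATRX NC arrays against 6.43, 6.52 and 6.85 across ATRX KO arrays. The groups were 0.91 apart at their nearest, and the ATRX NC array that was lowest for CD274 was the highest for PDCD1LG2. Its log2 difference was 1.60 with a standard error of 0.27 (adjusted p = 0.00795 from limma), a rise of 3.03-fold, and it passed in each of the 6 fits without 1 array (1.33 to 1.86, highest adjusted p = 0.0370). Its ATRX NC mean of 5.01 ± 0.53 (SD, n = 3) lay below the median gene level, where no measured floor is available, so that the size of the rise is uncertain.

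CD274 and PDCD1LG2 are adjacent genes on chromosome 9, with no protein-coding gene between them in the RefSeq gene order. Of the other genes around the pair, RLN2, RLN1 and PLGRKT on one side were at log2 differences of 0.66, 0.35 and -0.07, and RIC1, ERMP1 and BRD10 on the other side at -0.36, -0.54 and -0.08. None of these 6 passed the test (lowest adjusted p = 0.117 from limma, for ERMP1), so that in this stretch of measured neighbours the calls were those of the pair.

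**Figure D2:**
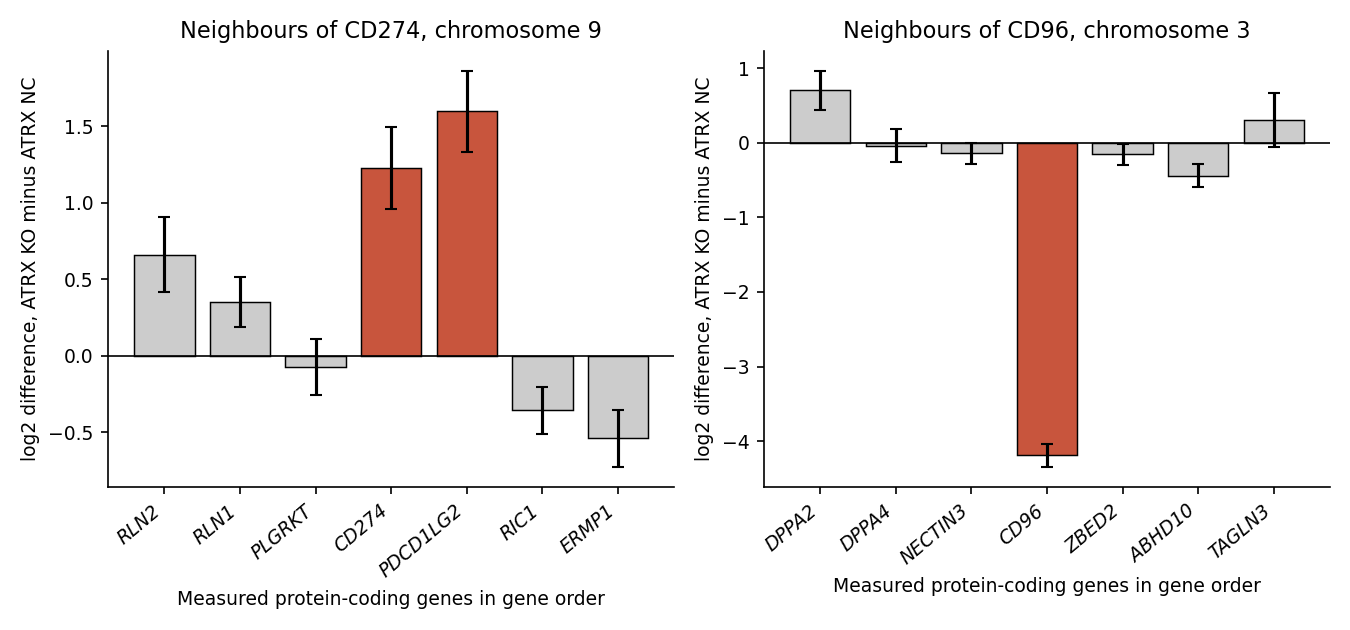
Log2 difference of ATRX KO minus ATRX NC (y axis, bars, with the standard error) for CD274 and CD96 and their 3 nearest measured protein-coding genes on either side in gene order (x axis), with genes past an adjusted p of 0.05 in color and others in gray. PDCD1LG2 rises beside CD274 by 1.60, and no measured neighbor of CD96 passes. The color of CD96 itself is a description, not a test.

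CD47 was at 11.93, 11.61 and 12.002 across ATRX NC arrays against 12.84, 12.63 and 12.48 across ATRX KO arrays, with no overlap and a gap of 0.48. The log2 difference was 0.80 with a standard error of 0.17 (adjusted p = 0.0249 from limma), a rise of 1.75-fold from 11.85 ± 0.21 to 12.65 ± 0.18 (SD, n = 3 each). Here too 4 of the 6 fits without 1 array ended the call, those without replicates 1 (adjusted p = 0.0540) and 2 (0.0767) of ATRX NC and 1 (0.0920) and 2 (0.0689) of ATRX KO, while the difference stayed between 0.68 and 0.89. Its 6 measured neighbours on chromosome 3, among them BBX at -0.07 and IFT57 at 0.05, did not pass.

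**Figure D3:**
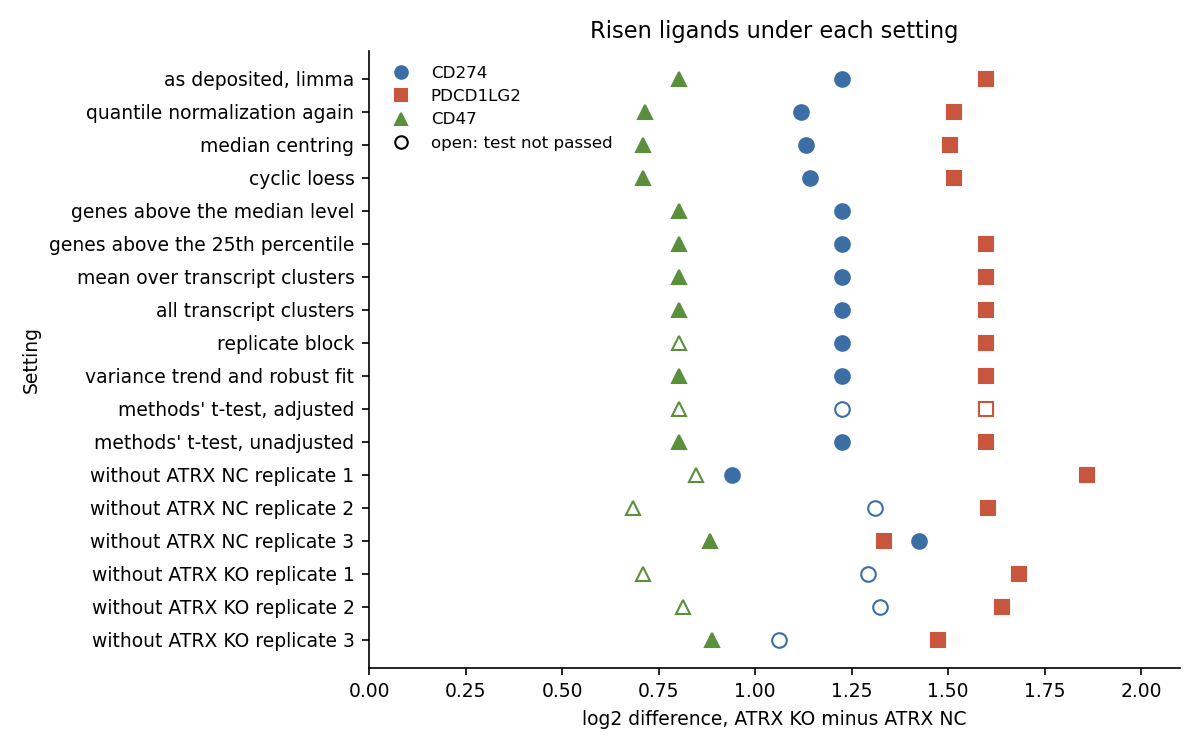
Log2 difference of ATRX KO minus ATRX NC (x axis) of CD274 (circles), PDCD1LG2 (squares) and CD47 (triangles) under each setting of processing or left-out array (y axis), with open symbols where the test was not passed. No difference falls below 0.68, and PDCD1LG2 is open under 1 setting.

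CD276, which encodes B7-H3, a B7 family protein abundant on many tumors, lies on chromosome 15 and was at 7.39, 7.22 and 7.03 across ATRX NC arrays against 7.45, 7.10 and 7.40 across ATRX KO arrays. The groups overlapped, and the log2 difference of 0.10 had a 95% interval from -0.29 to 0.49 (adjusted p = 0.778 from limma). LGALS9 on chromosome 17, which encodes galectin-9, a ligand of the T cell receptor TIM-3, was at 5.33, 5.09 and 5.11 against 5.57, 5.62 and 5.43. Its ATRX KO arrays were all higher, by a gap of 0.10, yet the difference of 0.36 (95% interval 0.02 to 0.70) did not pass over all genes (adjusted p = 0.185 from limma). LGALS9 has close copies, of which LGALS9B was at a difference of 0.25, and probes may not separate them.

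None of the 3 nectin family members passed the test. PVR on chromosome 19, also known as CD155, was at 9.72, 9.78 and 9.96 across ATRX NC arrays against 9.57, 9.63 and 9.69 across ATRX KO arrays, a difference of -0.19 (95% interval -0.52 to 0.14, adjusted p = 0.486 from limma). The groups did not overlap, but only 0.03 separated the nearest arrays. NECTIN2 on the same chromosome, also known as CD112, was at 7.75, 7.86 and 7.79 against 7.91, 7.48 and 7.86, with a difference of -0.05 (95% interval -0.43 to 0.33, adjusted p = 0.889). NECTIN3 was at 12.41, 12.59 and 12.52 against 12.42, 12.36 and 12.32, with a difference of -0.14 (95% interval -0.47 to 0.18, adjusted p = 0.596). For both nectins the groups overlapped. A p above the threshold does not show that these ligands were unchanged. Among the 6 measured neighbours of NECTIN2, the apolipoprotein gene APOE rose by 1.07 (adjusted p = 0.00358), and around PVR none passed.

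**Figure D4:**
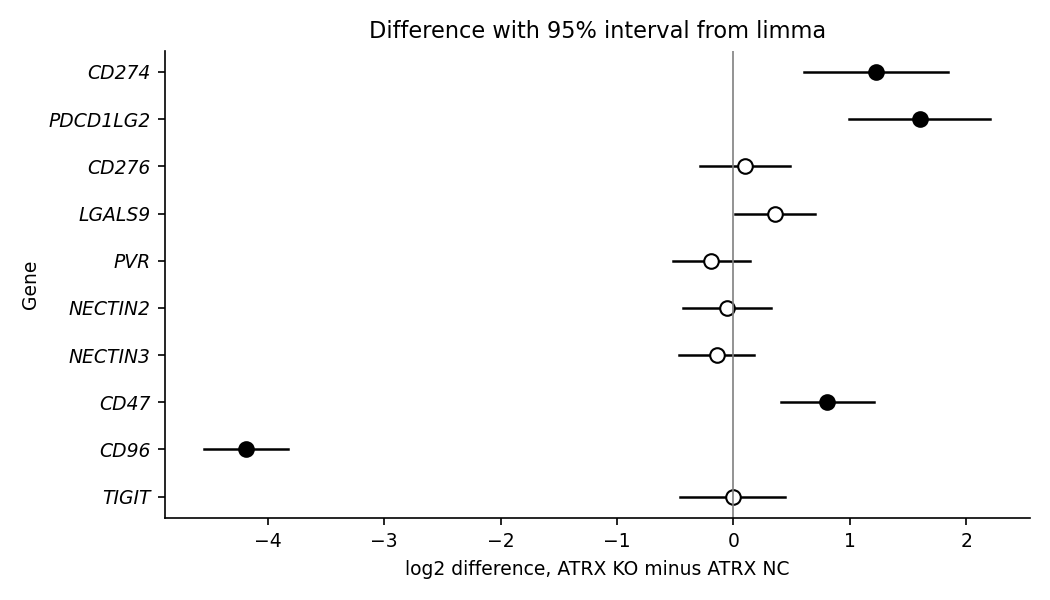
Log2 difference of ATRX KO minus ATRX NC (x axis) for each member (y axis), with the 95% interval from limma as a line, filled where the adjusted p over all genes was under 0.05. The intervals of CD276, PVR, NECTIN2, NECTIN3 and TIGIT cross 0, that of LGALS9 starts at 0.02, and CD96 stands alone at -4.19. The fill and interval of CD96 are a description, not a test.

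The log2 intensity of CD96 was 12.48, 12.39 and 12.65 across ATRX NC arrays against 8.45, 8.35 and 8.15 across ATRX KO arrays. Each group was narrow (SD 0.13 and 0.15, n = 3 each), and 3.94 on the log2 scale separated the nearest arrays of the 2 groups. The mean fell by 4.19 (standard error 0.16), to 5.49% of the ATRX NC level, the 7th largest fall of all 33616 genes, and it lay between -4.25 and -4.10 in the 6 fits that each leave out 1 array. TIGIT, the other receptor, was at 5.72, 6.11 and 6.21 against 6.29, 5.84 and 5.89. Its groups overlapped around the median gene level, and its difference was -0.01 (95% interval -0.45 to 0.44, adjusted p = 0.988 from limma).

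CD96 lies next to NECTIN3 on chromosome 3, and ZBED2, a zinc finger gene, lies within the span of CD96 in the RefSeq table. ZBED2 was at 5.40 in ATRX NC and 5.25 in ATRX KO cells, a log2 difference of -0.15 (adjusted p = 0.571 from limma), and NECTIN3 differed by -0.14. The other measured neighbours, DPPA2, DPPA4, ABHD10 and TAGLN3, were at 0.70, -0.04, -0.44 and 0.30, and none of the 6 passed. TIGIT lies on the same chromosome, and of its 6 neighbours the neural adhesion gene LSAMP fell by 2.02 (adjusted p = 0.000976). Over all members, 46 different neighbours that are not members were measured, of which 1 rose, 2 fell (LSAMP and, at -0.63 and not past the test in any of the 6 fits without 1 array, WSB1) and 43 did not pass. Of all genes 5.79% rose and 3.72% fell, and nothing is read from the count of neighbours.

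Because CD96 is known from T and NK cells, markers of lymphocytes and other leukocytes were read beside it. Of 17 measured markers none rose and 1 fell, where 5.79% of all genes rose and 3.72% fell. That 1 was NCAM1, which neural cells also express (-0.79, adjusted p = 0.0147 from limma). Its call was lost in 3 of the 6 fits without 1 array and with the mean over its clusters. With a variance trend and robust fit 2 of the 17 markers rose, and 2 rose under either filter on dim genes. An unadjusted p under 0.05 was reached by 4 markers and by 24.3% of all genes. The pan-leukocyte gene PTPRC was at 5.80 in ATRX NC and 5.88 in ATRX KO cells, the T cell receptor complex genes CD3D and CD3G at 4.07 and 4.09 against 4.17 and 4.40, and the NK cell gene KLRD1 at 3.53 against 3.64, and these 4 lay below the median gene level. Of the 17 markers 7 lay above it, among them the T cell receptor complex gene CD3E (6.60 against 7.19, adjusted p = 0.0518 from limma), the perforin gene PRF1 (7.45 against 8.09, adjusted p = 0.0560) and NKG7 (7.22 against 7.71, adjusted p = 0.177). These 3 were higher in each ATRX KO array than in any ATRX NC array. So was CD2, a T and NK cell surface gene below the median gene level (4.04 against 4.52, adjusted p = 0.215). Thus 4 of the 17 markers lay apart and higher and 1 apart and lower, against 19% and 11.2% of all genes. Nothing is read from these counts, and the part of the markers in the values of CD96 was not tested. The mean log2 level of the 17 markers was 5.70 to 5.77 in the ATRX NC arrays and 5.81 to 5.95 in the ATRX KO arrays. Their summed linear intensity, led by NCAM1, ranged from 2869 to 3431 and from 2519 to 2658. Arrays have no true zero here, and no detection call accompanies the values.

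The genes whose values over the 6 arrays, centered on their own mean, were closest to those of CD96 were NRCAM, GNG7, FABP7, LRATD2 and MYCN, among genes above the median level. The root mean square difference was 0.28 for NRCAM, a neural adhesion gene, 0.33 for GNG7, 0.34 for FABP7, 0.38 for LRATD2 and 0.38 for MYCN on the log2 scale. With 2 groups of 3 arrays this measure mostly ranks genes by the size of their difference, which was -3.86 for NRCAM and -4.75 for FABP7. The same measure placed LINC00475, ARPC3P1, ARMCX7P, RNU5B-2P and LINC00857 closest to CD274, at 0.12 to 0.16. These are noncoding genes or pseudogenes by their symbols. Like CD274 all were lowest in ATRX NC replicate 1, which follows from their being picked for values like those of CD274.

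Genes known to control PD-L1 were taken as a list of 22, of which 20 were measured by a cluster of their own. Of these 3 rose, 1 fell and 16 did not pass, where 5.79% of all genes rose and 3.72% fell. The median log2 difference was 0.24 against 0.07 over all genes. This list too was chosen with earlier results known, and nothing is read from its counts or median. IRF1, the transcription factor that acts on the CD274 promoter downstream of interferon-γ, was at 6.10, 6.47 and 6.24 across ATRX NC arrays against 9.45, 9.21 and 9.41 across ATRX KO arrays. IRF9, a transcription factor of interferon signaling, went from 8.94 to 11.09. SOCS1, a feedback inhibitor of JAK kinases, rose by 0.97 (adjusted p = 0.00735 from limma) from 3.65, below the median gene level. HIP1R, which is known to direct PD-L1 to lysosomes, fell by 0.84 (adjusted p = 0.0425), a call that passed in only 1 of the 6 fits without 1 array and was lost with the mean over its clusters. The receptor genes IFNGR1 and IFNGR2 (0.56 and -0.15) and the kinase genes JAK1 and JAK2 (0.31 and -0.23) did not pass. Nor did CMTM6, which stabilizes PD-L1 at the surface (0.17). The part of any of these genes in the values of CD274 was not tested.

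Partners of CD47 changed in both directions. THBS1, which encodes thrombospondin 1, a secreted ligand of CD47, was at 12.87 in ATRX NC and 15.88 in ATRX KO cells. SIRPA, whose protein SIRPα is the receptor of CD47, was at 12.58, 12.59 and 12.45 across ATRX NC arrays against 10.98, 11.09 and 11.08 across ATRX KO arrays, and it fell by 1.49 (standard error 0.14, adjusted p = 0.000435 from limma). ITGB3, an integrin subunit that associates with CD47, fell by 2.49 (standard error 0.16, adjusted p = 7.32e-05). ITGAV, the other integrin subunit of the list, was at 0.60 and did not pass (adjusted p = 0.058 from limma). It was higher in each ATRX KO array than in any ATRX NC array. LRP1, which takes part in phagocytosis, rose by 0.81 (adjusted p = 0.0257), and passed in 1 of the 6 fits without 1 array. CALR, which encodes the phagocytic signal calreticulin, was at -0.01, and QPCTL, the enzyme that modifies the SIRPα binding site of CD47, at -0.39 (adjusted p = 0.209). Of the list of 7, 2 rose and 2 fell, where 5.79% of all genes rose and 3.72% fell. These counts are a description and nothing is read from them.

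Of 7 measured nectin and nectin-like genes besides the members (CADM genes, their receptor CRTAM and the nectin anchor AFDN included), 4 fell and none rose, with a median of -0.62. That median is the value of AFDN. Over all genes 3.72% fell and 5.79% rose. The list was chosen with earlier results of these data known, so nothing is read from its counts or median. CADM4 was at 12.54, 12.47 and 12.27 across ATRX NC arrays against 10.34, 9.98 and 10.44 across ATRX KO arrays, and fell by 2.17 (standard error 0.17, adjusted p = 0.000201 from limma). CADM3 fell by 1.72 (adjusted p = 0.00178) and CADM1, a ligand of the lymphocyte receptor CRTAM, by 1.29 (adjusted p = 0.00131). AFDN fell by 0.62 (adjusted p = 0.0315), a call lost in each of the 6 fits without 1 array (highest adjusted p = 0.107). NECTIN1, NECTIN4 and CRTAM were at 0.36, -0.09 and 0.02 and did not pass. Whether the CADM genes and the nectins differ in their response was not tested.

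Among 13 other genes of the B7 and butyrophilin families, BTN3A3 rose by 0.88 (adjusted p = 0.00951 from limma), NCR3LG1, which encodes the NK cell ligand B7-H6, fell by 0.87 (adjusted p = 0.0342, passing in 1 of the 6 fits without 1 array), and 11 did not pass. The 11 include BTN3A1 and BTN3A2, at 0.41 and 0.41 (adjusted p = 0.153 and 0.143 from limma). Whether the probes of BTN3A3 are separate from theirs was not tested. CD80 and CD86, the ligands of CTLA4 and CD28, were at -0.07 and -0.12. Of 16 other ligands of T and NK cell receptors, 5 rose and 1 fell, and after quantile normalization again 4 rose and 2 fell. As deposited, 5.79% of all genes rose and 3.72% fell, and nothing is read from the counts of either list. The largest rise was that of LGALS3, which encodes galectin-3, from 7.33, 8.05 and 7.74 to 9.88, 9.27 and 9.87 (log2 difference 1.97, adjusted p = 0.00179). HLA-G and HLA-E, class I molecules recognized by inhibitory receptors, rose by 1.38 and 0.99, though probes may not separate them from other class I genes, and LGALS8 by 1.21. CD24, the fifth, was at 0.85 and did not pass under any of the 3 other scalings. CD200, which encodes a ligand that restrains myeloid cells, was at 8.04, 7.70 and 8.01 against 6.68, 6.35 and 5.49. It fell by 1.74 (adjusted p = 0.00812), and by 1.06 with the mean over its clusters.

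Of 8 ligands of the activating NK cell receptor NKG2D, MICB rose by 1.37 (standard error 0.22, adjusted p = 0.00750 from limma). It went from 9.13, 8.83 and 9.70 to 10.67, 10.58 and 10.51. The other 7 did not pass, among them MICA at 0.49, RAET1G and RAET1L at 0.53 each, and ULBP3 and ULBP1 at -0.08 and -0.01. The list median was 0.47. Whether the probes of MICB are separate from those of MICA was not tested. On the side of receptors, 17 genes besides the members were measured, of which SIRPA fell and KLRC1 rose (0.97, adjusted p = 0.0272, past the test in 1 of the 6 fits without 1 array) to 4.98, below the median gene level in both groups, and 15 did not pass. For both lists, the shares over all genes were 5.79% that rose and 3.72% that fell, and nothing is read from the counts. CTLA4, LAG3, HAVCR2, PVRIG and CD226 were at 0.35, 0.50, 0.20, 0.11 and 0.25, and LILRB1 and CD160 at -0.09 and -0.04. Only 3 of the 17 receptor genes lay above the median gene level. CTLA4 and LAG3 were far below it, at 3.76 and 3.44 in ATRX NC cells. PDCD1, the gene of PD-1 itself, is not analysed here.

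**Figure D5:**
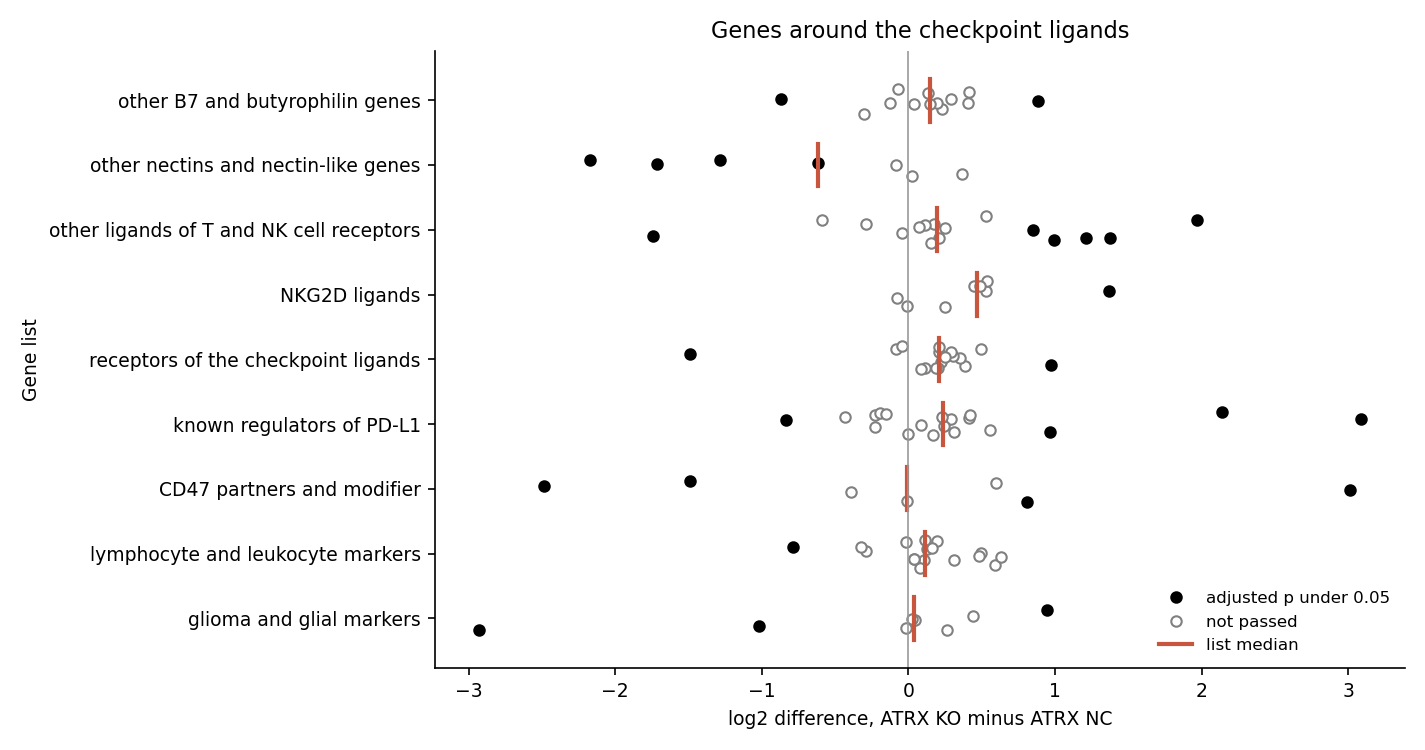
Log2 difference of ATRX KO minus ATRX NC (x axis) for each measured gene of 9 lists (y axis), with filled points at an adjusted p under 0.05, open points otherwise and the list median as a red line. The nectin-like list has its median at -0.62, and in the list of PD-L1 regulators IRF1 and IRF9 stand at the right.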

How the data were processed

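By their methods, the authors used quantile normalization from limma, and they deposited log2 intensities of 135748 transcript clusters per array. How probes were summarized and background was corrected is not given in the sources used here. Agilent arrays are named in the methods, but the labelling kit is for Affymetrix whole-transcript arrays. There is no read depth or detection call, so the number of arrays limits the precision. Clusters with exactly 1 symbol (36176) were kept, symbols were updated through Entrez numbers to RefSeq of GRCh38.p14 (25516 matched), and of several clusters of a gene the one with the highest mean was used (33616 genes). ATRX KO and ATRX NC, grouped by sample titles, were compared on log2 values without a block (limma 3.58.1, R 4.3.3), with Benjamini-Hochberg adjustment over all genes at 0.05. The fit was tested on simulated data. Neighbours were the 3 nearest measured protein-coding genes on each side by RefSeq order. Of each list up to 4 genes with the smallest p were named, as were the 5 nearest genes to CD274 and CD96, and further genes were picked with their values in view. The members and lists were chosen with earlier results of these data known. Alternatives were other scalings, filters on dim genes, the mean over clusters, all clusters, the replicate number as a block, a robust fit with a variance trend (statmod 1.5.0), the methods' t-test, and each array left out.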

Additional observations from a re-analysis of the deposited data

How the results depend on the processing

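PDCD1LG2 passed under 15 of 16 alternatives, CD274 under 12 of 17 and CD47 under 11 of 17, each higher in ATRX KO throughout. These counts do not measure how firm a call is. Each member has a single cluster, so the settings on clusters could not change its difference. Filters on dim genes left the difference as it was too, and the unadjusted t-test counts as passed. Leaving out 1 array, CD274 and CD47 each passed in 2 of 6 fits and PDCD1LG2 in 6. The log2 difference of CD96, given as a description, lay between -4.28 and -4.10 over 17 alternatives. Scaling by quantile normalization, median centring or cyclic loess shifted the median of all genes by -0.07 to -0.09 and changed no call of a member, but the share of called genes that rose was 60.9% as deposited and 48.7%, 47.7% and 49.2% after these scalings. With the methods' t-test after adjustment, CD274 (1.23), PDCD1LG2 (1.60) and CD47 (0.80) did not pass, so that 0 members rose, against 4 at an unadjusted p under 0.05, LGALS9 among them. Leaving out 1 array, CD274 ranged from 0.94 to 1.43, CD47 from 0.68 to 0.89, and 1 to 3 members rose. NECTIN2 ranged from -0.13 to 0.082 and TIGIT from -0.15 to 0.091, never past the test, turning in sign without ATRX KO replicate 2 for NECTIN2, and without replicate 2 or 3 of either group for TIGIT.

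Same-numbered arrays did not deviate together (r of -0.02, -0.04 and -0.00), and no array correlated best with its own number, so the numbers were not taken as pairs. With the number as a replicate block, CD47 (0.80, adjusted p = 0.0561) did not pass, and 1255 genes rose and 804 fell, against 1947 and 1251 without it. The counts were 3051 and 1909 over genes above the median level, 3207 and 1934 with a variance trend and robust fit, 1224 and 771 by the adjusted t-test, and 4650 and 2775 by the unadjusted one. Leaving out 1 array gave 1037 to 1354 genes that rose and 739 to 836 that fell, with fewer arrays in the fit. PDCD1LG2, LGALS9 and TIGIT lie below the median level and have no value over genes above it. The number of arrays and the lack of a measured floor limit the values of dim genes such as PDCD1LG2 and LGALS9.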
